A study of Mus musculus with 9 samples.

Results

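ESCs of mouse line J1 that lack DNMT3A were compared directly with J1 ESCs that lack DNMT3B, without reference to WT, over chromosomes 1 to 19. CpGs were matched between both tables by position, and 18447827 of the 19651591 autosomal CpGs listed in both tables had at least 5 reads in each and were compared. Whole genome bisulfite sequencing (WGBS) converts unmethylated cytosines, and a CpG's methylation level is the percentage of its reads that stayed cytosine. The series holds 9 libraries, of which 6 are used here, 3 of Dnmt3a-/- cells and 3 of Dnmt3b-/- cells, both of strain 129S4/SvJae and both grown on gelatin in medium with serum and LIF. Each knockout is a single ESC line, so that a property of the line and an effect of the lost gene cannot be told apart. Since the deposited tables pool 3 libraries each, every value below is a single one per genotype without replicate error, and differences were not tested across replicates. Levels are means over CpGs and are given as pairs, *Dnmt3a* KO first and *Dnmt3b* KO second. Intervals are 95% Newcombe intervals of the difference between the pooled read shares, *Dnmt3a* KO minus *Dnmt3b* KO. They cover counting error only, and since read shares weight deep CpGs more, an interval can lie beside the difference of the means. A read that spans several CpGs is counted at each of them as if independent, so that the intervals can be too narrow.

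DNMT3A and DNMT3B are the enzymes that set new methyl groups on CpGs in the early embryo and its stem cells, while DNMT1 copies the pattern after replication. Each contributes where the other is missing, and both are recruited by chromatin marks, away from promoters with unmethylated CpG islands (CGIs) and towards gene bodies and silent DNA. Purified DNMT3A is known to favour a pyrimidine, and DNMT3B a purine, as the base that follows the CpG.

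Most of the genome was lower in *Dnmt3a* KO, and runs of several CpGs with a large difference the other way were few. Differentially methylated regions (DMRs) were runs of at least 4 consecutive matched CpGs, each within 300 bp of the one before, at which the 95% credible interval of the difference lay beyond 0.2. There were 6 DMRs with lower methylation in *Dnmt3b* KO ESCs, and the sequences of 5 of them follow because so few runs of CpGs went this way. They are the plus strand of mm9, read from the NCBIM37 reference, 5′ to 3′, with the called CpGs in capitals. The region near *Gatsl2* shows an additional called CpG before the run, and of *Zfp629* only the stretch with the first 3 CpGs of its run is printed.
Mest, chr6:30688306-30688357: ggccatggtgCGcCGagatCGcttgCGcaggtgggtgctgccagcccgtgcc
Olfm3, chr3:114685596-114685666: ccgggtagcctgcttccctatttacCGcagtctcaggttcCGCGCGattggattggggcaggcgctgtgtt
Ltbp1, chr17:75767340-75767397: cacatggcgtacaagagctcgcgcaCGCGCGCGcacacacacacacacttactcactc
no gene, nearest Gatsl2, chr5:134504310-134504420: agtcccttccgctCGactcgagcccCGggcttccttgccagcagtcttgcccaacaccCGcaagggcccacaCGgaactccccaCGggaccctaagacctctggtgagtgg
Zfp629, chr7:134758661-134758690: gccctgcctCGggggaCGggctagatgcCG

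Among the 83437 DMRs with lower methylation in *Dnmt3a* KO ESCs, stretches of 2 are shown in the same way, because they lie at genes of DNA demethylation and imprinting whose promoters had the largest differences of their lists. *Tet1* encodes a dioxygenase that oxidises 5mC, and *Nnat* is an imprinted gene expressed from the paternal allele. The *Tet1* stretch shows 3 of the 13 CpGs of its DMR, and the *Nnat* stretch shows 22 of 25.
Tet1, chr10:62361837-62362060: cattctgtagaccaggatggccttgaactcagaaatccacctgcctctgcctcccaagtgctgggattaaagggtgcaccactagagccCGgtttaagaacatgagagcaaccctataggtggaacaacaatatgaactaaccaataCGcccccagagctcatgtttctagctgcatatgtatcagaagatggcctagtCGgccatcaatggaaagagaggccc
Nnat, chr2:157386154-157386350: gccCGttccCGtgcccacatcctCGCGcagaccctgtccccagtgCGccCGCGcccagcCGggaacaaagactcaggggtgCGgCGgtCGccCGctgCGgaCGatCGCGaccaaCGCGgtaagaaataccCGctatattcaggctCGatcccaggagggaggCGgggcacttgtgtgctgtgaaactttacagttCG

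The genotype of each table was visible in its targeted gene. At *Dnmt3a*, 12 consecutive CpGs in exons 18 to 19 (chr12:3902401-3902802) had 0 reads in *Dnmt3a* KO and a mean of 16.8 reads in *Dnmt3b* KO ESCs. At *Dnmt3b*, 30 consecutive CpGs in exons 17 to 20 (chr2:153502553-153504282) had 0 reads in *Dnmt3b* KO and a mean of 26.4 reads in *Dnmt3a* KO ESCs. The promoters of *Pou5f1*, *Sox2*, *Klf4*, *Zfp42* and *Tdgf1*, which mark pluripotent cells, were at 1.10% or less in both, *Nanog* was at 3.33% and 12.7%, and *Esrrb* and *Dppa3* are described with their list. The matched CpGs held 667335827 and 649397382 reads, the median depth was 21 and 22 reads per CpG, and 4810 CpGs with over 500 reads in either table held 37.5% and 33.2% of the reads.

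The matched CpGs had mean methylation of 50.2% without DNMT3A and 75.6% without DNMT3B, a difference of -25.4 percentage points (called points below). All 19 chromosomes were lower in *Dnmt3a* KO, by -26.3 to -24.2 points, with an SD over chromosomes of 0.646 points. Most CpGs that were highly methylated in *Dnmt3b* KO had intermediate levels in *Dnmt3a* KO. CpGs methylated at 80% or more made up 63.4% of all CpGs in *Dnmt3b* KO and 16.8% in *Dnmt3a* KO ESCs. Of the CpGs in that class in *Dnmt3b* KO, 72.0% were at 20% to under 80% in *Dnmt3a* KO, 22.7% were at 80% or more and 5.30% were under 20%. The opposite extremes were unequal in number, with 619381 CpGs at 80% or more in *Dnmt3b* KO and under 20% in *Dnmt3a* KO, and 2339 CpGs the other way round. In merged reads, partial methylation in every cell and its absence from a share of the cells cannot be told apart.

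At single CpGs, 3220505 (17.5% of those tested) were called lower in *Dnmt3a* KO and 10558 (0.0572%) were called lower in *Dnmt3b* KO ESCs. In windows of 1 kb with at least 5 matched CpGs, 1098022 of 1528505 (71.8%) were lower in *Dnmt3a* KO by more than 20 points and 117 (0.00765%) were lower in *Dnmt3b* KO by that much. Windows at 80% or more without DNMT3B had a median of 60.5% without DNMT3A, and the middle 80% of them lay between 44.9% and 73.7%. Windows with 40 or more CpGs were mostly unmethylated in both, and 3.97% of them were lower in *Dnmt3a* KO by more than 20 points. The plot of window levels shows this as a dense cloud far above the line of equal levels and a second one at its lower end.

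**Figure D1:**
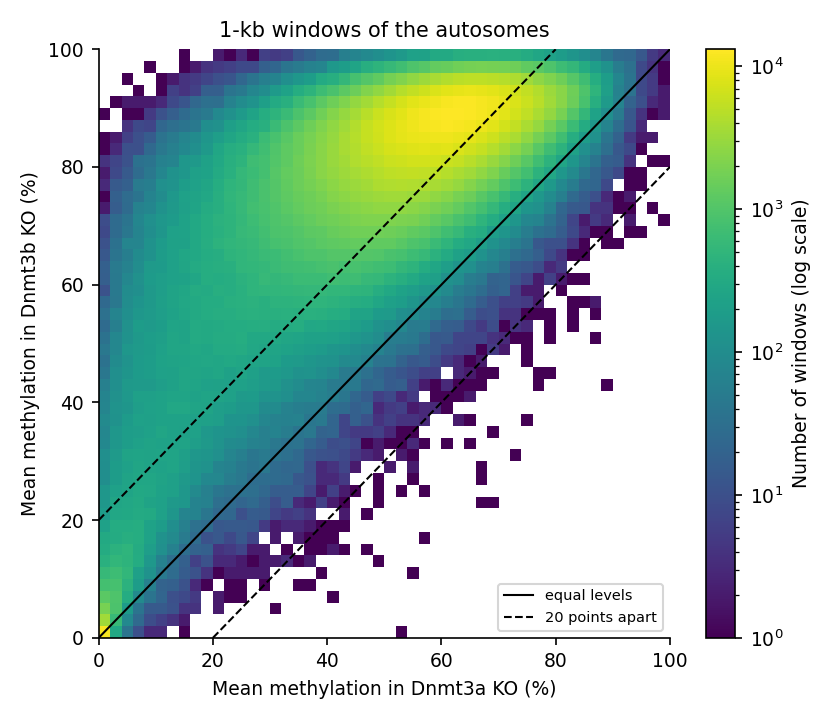
Mean methylation of 1528505 autosomal 1-kb windows in *Dnmt3a* KO (horizontal axis, %) against *Dnmt3b* KO ESCs (vertical axis, %), with colour for the number of windows on a log scale. The solid line marks equal levels and the dashed lines a difference of 20 points; 117 windows lie beyond the lower dashed line and 1098022 beyond the upper.

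Regions were described by their position in genes, for which protein-coding genes of the GENCODE annotation of the same assembly were used. The TSS of a gene was that of its longest protein-coding transcript, and promoters at its other annotated starts were not measured. A promoter described below therefore need not be at the start that ESCs use. By the mean over CpGs, promoters held the smallest difference and introns the largest among the gene parts. CpGs of proximal promoters (500 bp on both sides of the TSS) had a mean of 6.28% and 11.0%, and distal promoters (500 to 3000 bp upstream) had 32.1% and 55.3%. Coding exons stood at 47.3% and 70.6%, introns at 51.6% and 79.1%, and CpGs outside annotated genes at 54.3% and 79.97%. CGIs at proximal promoters were nearly free of methylation in both, at 0.575% and 0.865%, and CGIs elsewhere had 5.98% and 7.72%. The level in *Dnmt3a* KO was also expressed as a share of the level in *Dnmt3b* KO. This share was 57.0% at proximal promoters, 58.1% at distal promoters, 65.2% in introns and 67.9% outside genes. Among these classes the relative difference by these means was thus greatest at proximal promoters, although the absolute one was smallest. It was not greater at CGIs of proximal promoters, where the share was 66.5%, beside 66.4% over all matched CpGs. Read shares, in which CpGs of extreme depth weigh most, gave other sizes and another order, with intervals that ended at -10.6 points for proximal promoters, -14.1 for distal promoters, -15.3 for coding exons, -24.7 for introns and -25.2 for untranslated exons.

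Around the TSS both profiles dipped at the same place. At 4900 to 5000 bp upstream the levels were 43.1% and 69.9%, in the 100 bp before the TSS they were 4.30% and 7.71%, and 4900 to 5000 bp downstream they were 44.6% and 71.5%. The plot of CpGs around the TSS shows the difference as nearly constant outside the dip on either side.

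**Figure D2:**
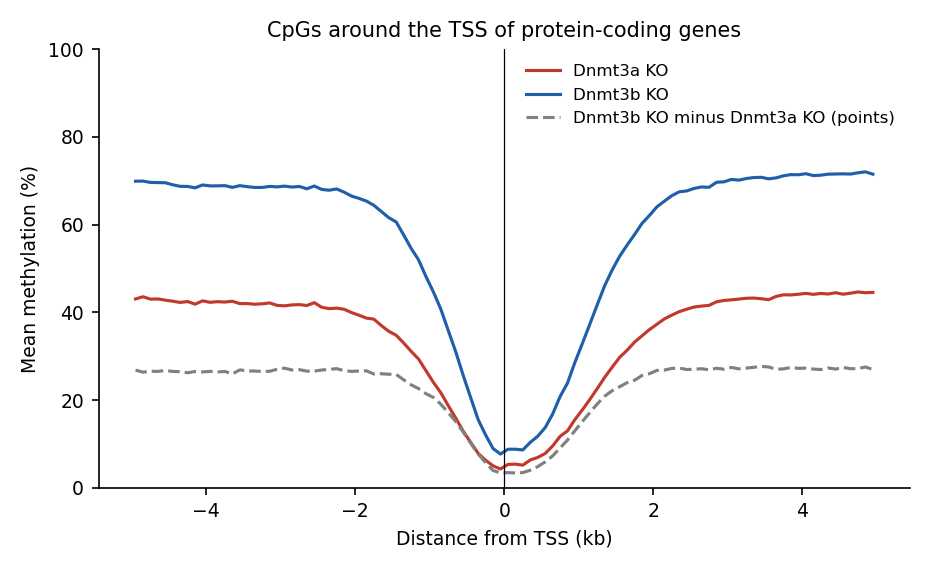
Mean methylation (%) of CpGs in 100-bp steps by distance from the TSS (kb) of protein-coding genes in *Dnmt3a* KO (red) and *Dnmt3b* KO ESCs (blue), with the dashed line for *Dnmt3b* KO minus *Dnmt3a* KO in points. The difference is 26.8 points at the upstream end and 3.41 points in the 100 bp before the TSS.

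Proximal promoters were lower in *Dnmt3a* KO by more than 20 points at 5146 of 19309 genes (26.7%), distal promoters at 15201 of 20708 (73.4%) and gene bodies (from 3000 bp after the TSS to the end of the gene) at 15256 of 16786 (90.9%). Lower in *Dnmt3b* KO by that much were 0 genes in each kind of region, which is 0% of the proximal promoters, of the distal promoters and of the gene bodies. Promoters with more CpGs were called less often and were less methylated in both. Among promoters with 5 to 19 CpGs, 4113 of 5521 (74.5%) were lower in *Dnmt3a* KO, and their medians were 51.9% and 82.6%. With 20 to 39 CpGs there were 978 of 3344 (29.2%), and with 40 or more CpGs 55 of 10444 (0.527%), with medians of 0.456% and 0.795%. Among promoters at 80% or more in *Dnmt3b* KO, the share called did not follow the number of CpGs, with 82.6% of 3257, 82.3% of 548 and 83.3% of 6 promoters in the same classes. Among those at 20% to under 80% the share was 72.3% of 1969, 64.1% of 822 and 37.0% of 135, but the levels of these classes differed as well, with medians of 38.5% and 70.3%, 16.7% and 43.4%, and 14.4% and 33.1%.

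The promoter of *Prrx2*, a homeobox gene, had the largest difference among promoters with at least 10 CpGs, at 10.1% and 85.8% over 11 CpGs. It was followed by *Fetub*, which encodes a plasma protease inhibitor, at 7.41% and 82.0%, and by *Tet1*, at 4.82% and 77.1% over 14 CpGs (interval of the difference -76.0 to -64.9 points). The stretch of the *Tet1* DMR printed above lies in this promoter. The endothelial matrix gene *Mmrn2* stood at 19.4% and 90.02%, *Stox2* at 14.4% and 83.8%, and *Sh2d4b* at 6.73% and 75.8%. *Morc1*, which is needed to silence transposons in male germ cells, was at 11.1% and 79.3%, and the NOD-like receptor gene *Nlrc3* was at 17.3% and 85.0%. The other 2 of the 10 largest, *Gm1070* (3.71% and 72.6%) and *Gm525* (25.8% and 94.3%), have no function that could be named here. These 10 were chosen by their difference, and 7 of them were under 15% without DNMT3A.

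In the other direction the differences were small. Of the 19309 proximal promoters, 2973 were lower in *Dnmt3b* KO at all, 30 by more than 5 points and 4 by more than 10 points. Of the 2973, 2670 had 40 or more CpGs and were under 20% in *Dnmt3b* KO, a class of promoters with medians of 0.448% and 0.776%. *2610528J11Rik* had the largest difference, with 36.1% and 18.9% over 18 CpGs (interval 11.6 to 23.7 points). *BC066135* stood at 26.9% and 15.6% (interval 9.34 to 19.5 points), and *Miip* at 27.2% and 16.9% (interval 3.81 to 10.5 points). *Fv1*, a restriction gene against murine leukaemia virus whose promoter overlaps that of *Miip*, was at 33.4% and 24.8%. The promoters of *Zfp575* (24.2% and 13.2%) and *Ethe1* (24.3% and 16.1%), a mitochondrial sulfur dioxygenase gene, overlap as well, and the intervals of both included 0 (-2.46 to 7.66 and -5.69 to 4.18 points). The difference of *Zfp575* was 0.0120 points with at least 10 reads and 2.62 points as read share. The others of the 10 largest were *Arhgef19* (12.3% and 3.52%), *4930528F23Rik* (15.6% and 7.06%), *Zfp629* (18.8% and 10.3%) and *Olfr1037* (79.9% and 71.8%). For *Olfr1037* and *Ethe1* the direction depended on the minimum of reads, with -17.2 and -2.27 points when at least 10 reads were required, and the interval of *Olfr1037* lay on the other side of 0 (-20.2 to -1.14 points). With that minimum, 1 promoter was lower in *Dnmt3b* KO by more than 20 points.

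Among gene bodies with at least 10 CpGs, *Mc1r*, the melanocortin receptor gene, had the largest difference, at 8.49% and 69.4%. *Abra*, which encodes an actin-binding protein of muscle, stood at 24.4% and 84.3%, and *Nanog*, a core pluripotency factor, at 23.3% and 77.4% over 47 CpGs. *Tcf15*, which encodes a bHLH factor, was at 32.5% and 85.6%, and the chymotrypsinogen gene *Ctrb1* at 27.7% and 79.1%. *6430531B16Rik* (13.5% and 67.7%), *1700016K19Rik* (29.9% and 83.5%), *Tmed6* (30.5% and 83.7%) and *Btbd19* (17.6% and 70.3%) were also among the 10 largest. Only 14 gene bodies with at least 5 CpGs were lower in *Dnmt3b* KO at all, and 1 of them by more than 5 points. This was *Hrc*, a calcium-binding protein gene of the sarcoplasmic reticulum, at 28.7% and 19.2% over 10 CpGs, with an interval that included 0 (-2.39 to 13.5 points). The zinc transporter gene *Slc39a7* followed at 36.2% and 31.3% (interval -6.89 to 8.25 points, and 0.701 points as read share), *1700067K01Rik* stood at 2.27% and 0%, and *Maz* at 29.8% and 27.9%. The other 6 of the 10 largest with at least 10 CpGs (*Gng8*, the Polycomb gene *Cbx8*, *Krt10*, *Spry2*, *Hoxb8* and *3930402G23Rik*) differed by 0.140 to 1.36 points. Of these, *Hoxb8* turned to -1.15 points with at least 10 reads and *Spry2* to -0.204 points as read share.

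Gene lists were described by how many members were lower in *Dnmt3a* KO by more than 20 points, beside the 26.7% of all proximal promoters and the 90.9% of all gene bodies. The 26.7% includes promoters under 20% in *Dnmt3b* KO, which cannot be lower in *Dnmt3a* KO by that much. Among all promoters at 20% to under 80% in *Dnmt3b* KO, 72.3% with 5 to 19 CpGs were. With 20 to 39 CpGs it was 64.1% and with 40 or more 37.0%, and at 80% or more it was 82.3% or more in each class. The lists were not matched for level. Lower in *Dnmt3b* KO by more than 20 points were 0 members of every list in both kinds of region. Germline genes, which promoter methylation keeps silent in somatic cells, had 24 of 39 measured promoters (of 40 listed) lower in *Dnmt3a* KO (61.5%), with medians of 25.2% and 58.8%. *Hormad1*, a gene of the meiotic chromosome axis, was at 27.5% and 76.8%. *Sohlh2*, a germ cell bHLH factor, stood at 15.0% and 63.8%, the piRNA pathway gene *Piwil2* at 18.2% and 59.5% and the sperm lactate dehydrogenase gene *Ldhc* at 25.2% and 65.1%. All 39 germline promoters were lower in *Dnmt3a* KO by any amount, beside 83.8% of all proximal promoters. *Zpbp2* (0.592% and 4.59%), *Ddx4* (16.1% and 20.3%), *Tdrkh* (9.94% and 15.0%) and *Rnf17* (25.2% and 32.1%) differed least, with intervals that included 0 for *Ddx4* and *Rnf17*. The 83.8% of all proximal promoters includes those near 0 in both knockouts. Of all promoters at 20% to under 80% in *Dnmt3b* KO, 17 of 1969, 4 of 822 and 4 of 135 in the 3 classes were lower in *Dnmt3b* KO at all. At 80% or more it was 2 of 3257, 0 of 548 and 0 of 6. All 34 measured germline gene bodies were lower by more than 20 points.

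Pluripotency genes had 5 of 21 measured promoters (of 22 listed) lower in *Dnmt3a* KO (23.8%). These were *Esrrb*, an orphan nuclear receptor gene of the pluripotency network, at 25.3% and 86.6% (interval of the difference -64.4 to -51.7 points), the AKT coactivator gene *Tcl1* at 6.99% and 58.5%, the nuclear receptor gene *Nr5a2* at 47.7% and 81.5%, *Dppa3* at 49.8% and 76.8%, and *Prdm14* at 1.48% and 24.2%. The medians over the 21 promoters were 0.543% and 0.938%. *Klf2*, *Klf4*, *Klf5* and *Fgf4* led the other direction, by less than 1 point each. Of 17 measured gene bodies 14 were lower, with medians of 26.3% and 62.3%, beside 53.5% and 82.3% for all genes. Besides *Nanog*, the bodies of *Klf4* (14.8% and 60.3%), *Esrrb* (32.2% and 71.4%) and *Zfp42* (7.94% and 46.9%) had the largest differences. *Pou5f1*, at 3.75% and 11.0%, had the smallest.

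Genes of the DNA methylation machinery, all 17 of them measured, had 3 promoters lower in *Dnmt3a* KO. Besides *Tet1*, these were *Dnmt3l*, which encodes the catalytically inactive partner of both enzymes, at 24.2% and 80.4%, and *Zfp57*, which encodes a zinc finger protein that protects imprints, at 29.1% and 75.4% over 8 CpGs. The promoter of *Uhrf1*, whose product recruits DNMT1, had the next largest difference at 1.39% and 6.26%. The promoters of *Dnmt3a* and *Dnmt3b* themselves were under 1% in both. *Tet2*, *Dnmt3a*, *Dnmt3b* and *Mbd2* were lower in *Dnmt3b* KO by less than 1 point. In gene bodies 16 of 17 were lower in *Dnmt3a* KO, led by *Zfp57* (19.8% and 57.8%), *Tet2* (38.7% and 73.8%), *Hells* (50.6% and 82.8%) and *Dnmt3l* (32.8% and 64.9%).

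At imprinted genes, where methylation of 1 parental allele is usual, 4 of 25 measured promoters (of 30 listed) were lower in *Dnmt3a* KO. The promoter of *Nnat* had 34.3% and 90.6% over 69 CpGs (interval -58.2 to -51.9 points). *Snrpn* was at 38.2% and 88.5% over 5 CpGs, *Usp29* at 57.4% and 87.8%, and *Nap1l5* at 42.0% and 66.1%. *Mcts2* (52.1% and 44.6%), *Plagl1* (50.0% and 46.7%) and *Rasgrf1* (1.34% and 0.407%) were lower in *Dnmt3b* KO, and the interval of *Mcts2* included 0 (-5.00 to 2.45 points) while that of *Plagl1* did not (0.867 to 8.06 points). Imprinted promoters thus ranged from near-equal levels to a difference of over 50 points. Of the imprinted gene bodies, 13 of 17 were lower in *Dnmt3a* KO, with *Magel2* at 32.1% and 83.2%, *Plagl1* at 46.9% and 80.7%, *Sgce* at 54.5% and 84.3% and *Dlk1* at 46.8% and 75.0%.

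Housekeeping genes had 1 of 50 promoters lower in *Dnmt3a* KO, that of the lactate dehydrogenase gene *Ldha* at 34.1% and 73.1%, and their bodies had medians of 48.4% and 75.3%, with *Canx* at 48.6% and 84.6% and *Ptbp1* at 32.4% and 68.0%. Developmental transcription factors had 19 of 160 promoters lower (11.9%), led by *Nkx6-3* (26.7% and 88.1%), *Hoxa7* (22.9% and 83.8%), *Sox5* (28.8% and 78.4%) and *Hoxc4* (28.9% and 76.6%). Their gene bodies were less methylated than those of all genes in both knockouts, with medians of 26.2% and 54.6%, and 63 of 116 were lower in *Dnmt3a* KO (54.3%). *Dlx1* (21.3% and 21.7%) and *Six2* (9.70% and 10.7%) were nearly equal. Of 24 clustered protocadherin promoters, 12 were lower in *Dnmt3a* KO, with medians of 12.1% and 34.3% and with *Pcdhb12* at 7.65% and 47.0%.

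Among the large gene families, olfactory and vomeronasal receptor genes had 471 of 679 measured promoters (of 1426 listed) lower in *Dnmt3a* KO (69.4%), with medians of 56.4% and 82.7%, and keratin genes had 57 of 89, with medians of 54.9% and 83.1%. The other way went 4 receptor promoters, *Olfr1037*, *Vmn1r91* (48.9% and 45.8%), *Olfr792* (52.9% and 51.2%) and *Olfr491* (71.5% and 70.1%), and 1 keratin promoter, *Krtap6-3* (76.5% and 71.6%). The interval of *Olfr1037* lay on the opposite side of 0, as given above, and those of the others included 0. Zinc finger genes had 40 of 343 promoters lower (11.7%), led by *Zfp541* (35.3% and 86.4%) and *Zfp607* (29.5% and 77.6%), and *Zfp575* and *Zfp629* had the largest differences the other way, of which that of *Zfp575* was 0.0120 points with at least 10 reads. Of 66 histone cluster promoters, 3 were lower, and these were genes of testis variants, *Hist1h2aa* (17.4% and 55.5%), *Hist1h2ba* (16.8% and 46.8%) and *Hist1h1t* (22.4% and 50.7%). The promoters of the first 2 overlap and share CpGs. The plot of list medians shows promoters that split into lists near 0 and lists far apart, while the gene bodies of every list lie apart.

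**Figure D3:**
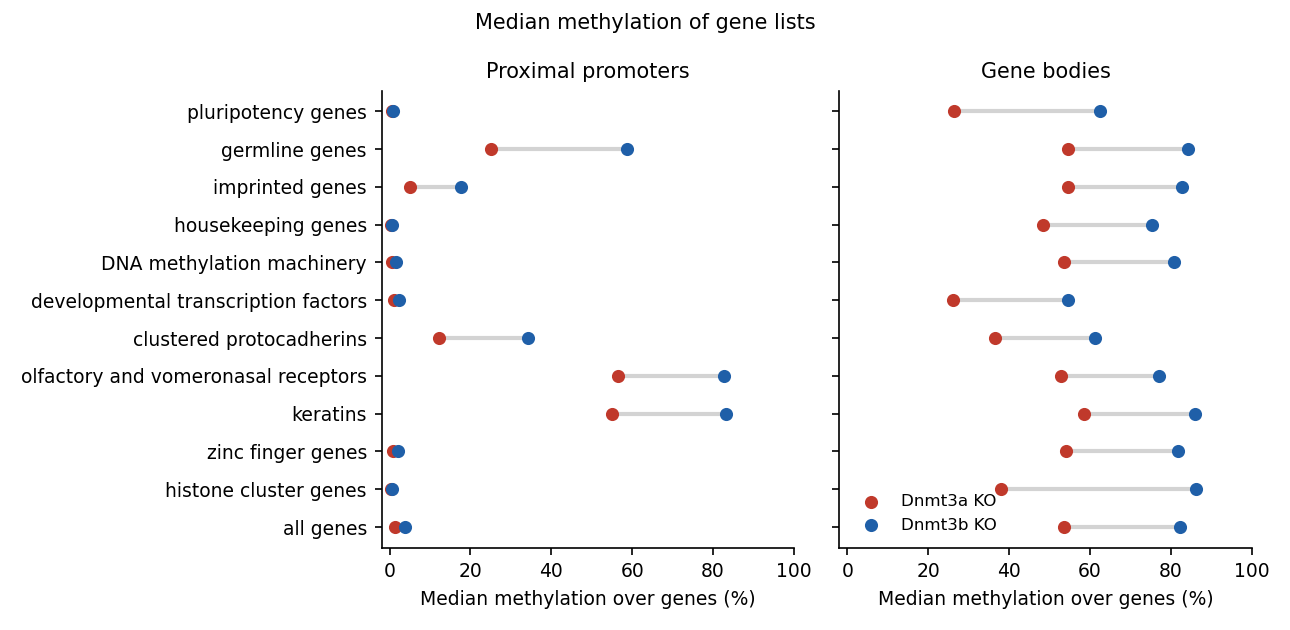
Median methylation (%) over the measured members of each gene list at proximal promoters (left) and in gene bodies (right), with red points for *Dnmt3a* KO, blue points for *Dnmt3b* KO ESCs and a grey line joining them. Germline promoters lie at 25.2% and 58.8% and promoters of all genes at 1.37% and 3.84%.

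The DMRs lower in *Dnmt3a* KO had a median length of 192 bp and a median of 4 CpGs, with median levels of 21.6% and 88.9%. They held 427794 CpGs, and 49.2% of them had a CpG in an intron, 38.8% outside annotated genes, 1.35% in a proximal promoter and 0.0216% in a CGI at a promoter. Of all matched CpGs, 38.0% lay in introns, 46.5% outside annotated genes, 4.29% in proximal promoters and 2.57% in CGIs at promoters. These are shares of single CpGs, whereas those of the DMRs are shares of regions. Of the single CpGs called lower in *Dnmt3a* KO, 42.9% lay in introns, 44.7% outside annotated genes, 0.844% in proximal promoters and 0.0159% in CGIs at promoters. The DMR with the most CpGs (51) lay outside genes on chr5:33870138-33872029, at 10.8% and 84.3%, with *Nkx1-1* as the nearest gene. An intron of *Tsnax* held 46 CpGs at 21.0% and 90.1% (chr8:127544311-127546294), and an intron of *Ddx58*, which encodes the viral RNA sensor RIG-I, held 37 CpGs at 26.9% and 85.1%. An intron of *Esrrb* held 30 CpGs in 1720 bp (chr12:87843323-87845042), at 2.98% and 76.2%. The *Nnat* DMR lay 318 bp from the TSS of *Nnat*, inside an intron of *Blcap*, and held 25 CpGs in 219 bp, at 10.4% and 88.6%.

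In 5382 windows of 1 kb the level was under 10% in *Dnmt3a* KO and at least 50% in *Dnmt3b* KO ESCs. Of these, 46.2% lay outside annotated genes, 39.1% in introns and 2.17% in proximal promoters, beside 50.0%, 33.6% and 2.41% of every 200th window measured, which stands for all windows. The window with the most CpGs (48) lay outside genes near *Calhm1*, at 8.15% and 55.5%. The reverse state was counted in 2 windows, in introns of *Abca1* (54.5% and 10% over 7 CpGs) and of *Dlg2* (53.4% and 1.33% over 5 CpGs). The *Abca1* window stood at the limit of 10%, so that only the *Dlg2* window was clearly under it. Both windows were shallow, with 6.57 and 6.80 reads per CpG in *Dnmt3a* KO ESCs, and 0 such windows were found with at least 10 reads at every CpG.

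The 117 windows lower in *Dnmt3b* KO by more than 20 points had medians of 10.8 and 11.2 reads per CpG, beside 21.8 and 22.6 over all windows. Of these, 85 held 5 to 9 CpGs, beside 876710 of all 1528505 windows, and 95 lay outside annotated genes (81.2%, beside 50.0% of every 200th window). With at least 10 reads at every CpG, 60 such windows were counted. The part that low depth had in the count was not tested further.

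The 6 DMRs lower in *Dnmt3b* KO were short, with 4 or 5 CpGs in 8 to 68 bp, and 3 of them (*Nefm*, *Mest* and *Zfp629*) lay within 958 bp of an annotated TSS. Their number depended on the rule, with 1 under a 99% credible interval, 1 beyond a difference of 0.3, 0 with at least 6 CpGs and 55 with Fisher's exact test in place of the credible interval. The *Nefm* region lies in the first exon, in the coding sequence of the medium neurofilament protein, and its 5 CpGs had a mean of 65.5% and 5.67%. Its CpGs had 56.5% to 75.0% in *Dnmt3a* KO and 0% to 18.8% in *Dnmt3b* KO ESCs, at 23 to 32 and 16 to 32 reads. These reads also chose the region, so that its values here and those of the other 5 regions are a description. CpGs this close together can lie on the same reads, so that the CpGs of a run are not independent counts.

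At *Zfp629* the 4 CpGs lay in the untranslated exon 1, 49 bp from the TSS, and had means of 54.1% and 0.962%, with 50% to 62.1% and 0% to 3.85% at single CpGs. At *Mest*, an imprinted gene of a hydrolase-like protein, the 4 CpGs lay 253 bp from an annotated TSS, while the TSS of the longest transcript lay 14769 bp away. They had means of 92.7% and 23.9%, with 9 to 11 reads per CpG in *Dnmt3a* KO ESCs. The *Olfm3* intron, in a gene of a secreted glycoprotein, had means of 82.5% and 15.6%. The *Ltbp1* intron, in a gene of a latent TGF-beta binding protein, had means of 89.6% and 24.0% at 4 CpGs that follow each other without a gap, as the printed sequence shows. The region outside genes, 71186 bp from the TSS of *Gatsl2*, had means of 78.5% and 15.4%.

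The DNA around these 6 regions went the other way. In the CpGs of the surrounding 10 kb the means were 37.2% and 48.9% at *Nefm*, 44.0% and 64.4% at *Mest*, 55.8% and 77.0% at *Olfm3*, and 68.3% and 77.7% at *Zfp629*. The differences there ranged from -25.4 points at *Ltbp1* to -9.34 points at *Zfp629*. The plot of single CpGs shows the level at each CpG with its counting error. That the levels lie apart at every CpG follows from how the regions were called.

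**Figure D4:**
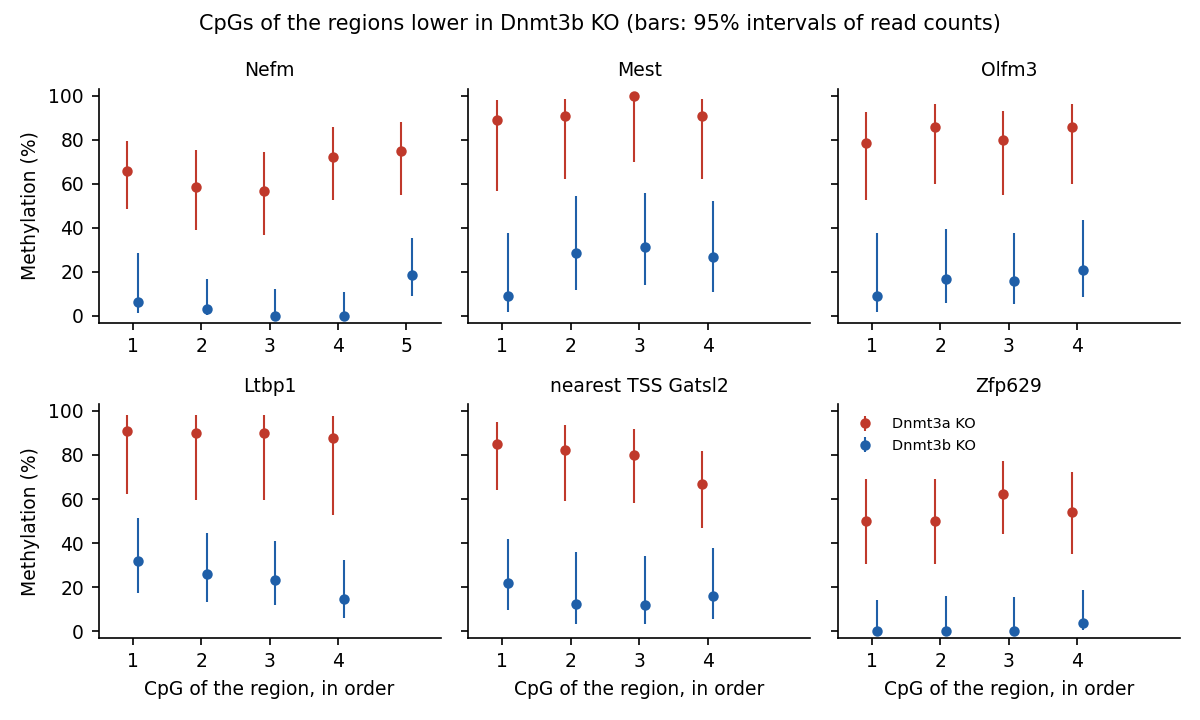
Methylation (%) of each CpG of the 6 DMRs lower in *Dnmt3b* KO, in order along the chromosome, in *Dnmt3a* KO (red) and *Dnmt3b* KO ESCs (blue), with 95% Wilson intervals of the read counts as bars. In the *Nefm* region the red points lie between 56.5% and 75.0% and the blue points between 0% and 18.8%.

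The direction was uniform over large bins and mixed over CGIs. All 23932 bins of 100 kb with at least 200 matched CpGs were lower in *Dnmt3a* KO. The largest difference was -45.9 points in the bin that starts at 107200001 on chromosome 11 in *Pitpnc1* (26.4% and 72.3%), and the next was -43.3 points in the bin at *Esrrb* (28.6% and 72.0%). The smallest was -2.88 points in the bin that starts at 126100001 on chromosome 8, which holds *Rhou* (22.3% and 25.2%). Of 10275 measured CGIs, most of them near 0 in both, 6490 (63.2%) were lower in *Dnmt3a* KO and 3602 (35.1%) in *Dnmt3b* KO by any amount, and 430 and 62 by more than 10 points. The 369 CGIs at 50% or more in *Dnmt3b* KO had medians of 60.8% and 69.2%. Of all measured CGIs, 121 (1.18%) were lower in *Dnmt3a* KO by more than 20 points and 6 (0.0584%) were lower in *Dnmt3b* KO by that much. The CGI at *Nnat* led the first group at 31.4% and 89.9%, and a coding exon of *Odz2* held another at 29.6% and 80.1%. Of the second group, 5 lay outside annotated genes and 1 in an intron of *Dpp6*, and the one nearest *Zic1*, 103757 bp from its TSS, had 36.2% and 11.4% at 9.59 and 8.63 reads per CpG.

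The level followed the base after the CpG in opposite directions in the knockouts. This split by base was chosen after its values were seen, and CpGs over 500 reads were left out of it. Each CpG has a following base on either strand. With a purine after both cytosines (4935962 CpGs), the mean was 55.1% and 73.4%, a difference of -18.4 points. With a purine after one cytosine the means were 49.3% and 75.8%, and with a pyrimidine after both they were 46.9% and 77.6%, a difference of -30.7 points. Without DNMT3A, CpGs with purines were thus the more methylated ones, and without DNMT3B those with pyrimidines were.

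The gap between both extremes of the difference was 12.3 points, and on single chromosomes it lay between 11.8 and 12.7 points. Within 1-kb windows that hold both kinds, of which there were 1436473, the gap was 12.8 points, so that it was as large between neighbours. It was present at low and medium CpG density and narrower in absolute terms where over 15 CpGs lay within 250 bp (-5.50 points with purines and -13.1 points with pyrimidines after both cytosines). The plot by following base shows the red and blue lines drawing together towards purines in all 4 classes, although in the densest class the red points for one purine (22.1%) and none (22.4%) are nearly level.

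**Figure D5:**
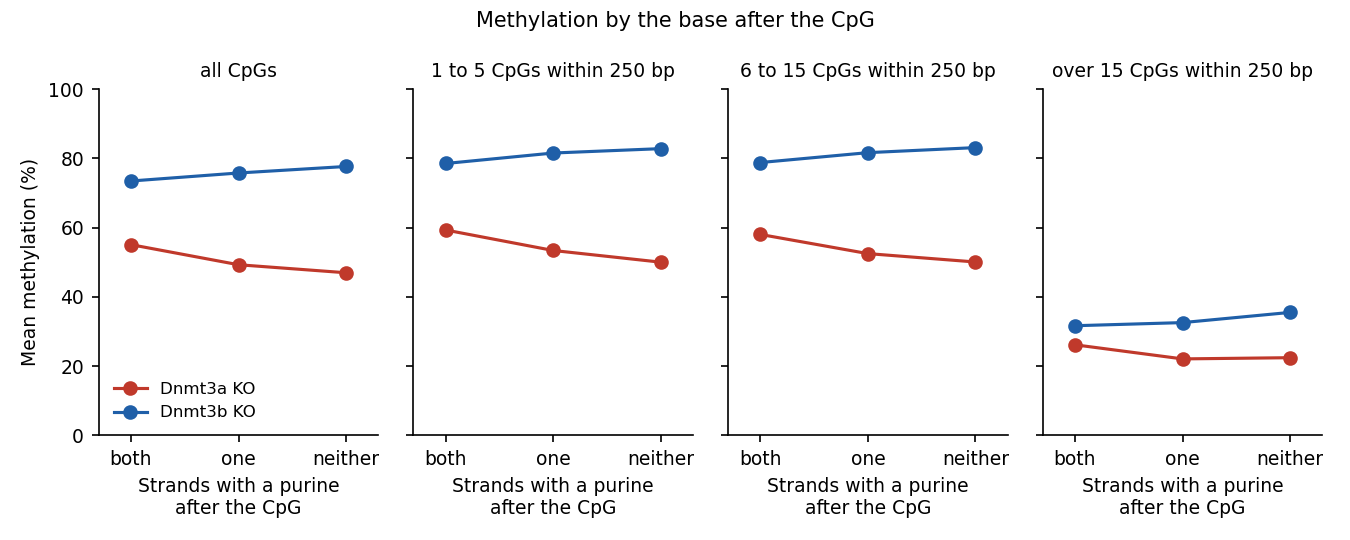
Mean methylation (%) of CpGs with a purine after the CpG on both strands, one strand or neither, for all CpGs and for 3 classes of CpG number within 250 bp, in *Dnmt3a* KO (red) and *Dnmt3b* KO ESCs (blue). Over all CpGs the red line runs from 55.1% to 46.9% and the blue line from 73.4% to 77.6%.

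The same split held for the calls at single CpGs. Of the CpGs called lower in *Dnmt3b* KO, 64.1% had purines after both cytosines, beside 26.8% of all matched CpGs and 14.5% of those called lower in *Dnmt3a* KO. Expressed per class, 9.45% of the CpGs with purines after both cytosines and 23.8% of those with pyrimidines after both were called lower in *Dnmt3a* KO. In the 5 printed DMRs lower in *Dnmt3b* KO this was mixed. Pyrimidines after both cytosines stood at 0 of the 3 called CpGs shown at *Zfp629* and 0 of 5 near *Gatsl2*. They stood at 1 of 4 at *Olfm3*, 2 of 4 at *Mest* and 4 of 4 in the *Ltbp1* repeat, beside 25.3% of all matched CpGs. So few CpGs cannot show whether these regions follow the split. Among all hexamers with a central CpG, CACGTG, the E-box motif of bHLH factors, had the largest difference, with read shares of 36.2% and 78.1% (interval -41.9 to -41.8 points). ATCGAT had the smallest, with 65.4% and 73.8%. In CACGTG a pyrimidine follows the central CpG on both strands, and in ATCGAT a purine does. Binding of bHLH factors was not tested.

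The strands of a single CpG were compared at the 8846844 CpGs that have a pyrimidine after one cytosine and a purine after the other. The read share on the pyrimidine strand minus that on the purine strand was -9.76 points in *Dnmt3a* KO and -4.16 points in *Dnmt3b* KO ESCs. Most of both values came from the CpGs over 500 reads, since without them they were -0.495 and -0.364 points. As a mean over CpGs the values were -1.31 and -0.466 points.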

How the data were processed

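WGBS was analysed in Dnmt3a-/- and Dnmt3b-/- J1 ESCs. Per the study's methods, reads were mapped to mm9 with BSMAP, cleaned with BSeQC (end-repaired bases, clonal reads and overlapping mates) and called with mCall of MOABS. The deposited tables hold read counts, all and methylated, per CpG and strand, which the authors had merged over 3 libraries per genotype.

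CpGs with at least 5 reads in both tables were compared as methylated over all reads. A CpG was called where the 95% credible interval of the difference of Beta posteriors with uniform priors lay beyond 0.2, with deeper counts scaled down to 200 reads. Windows and gene regions needed 5 CpGs and were called beyond 20 points. CGIs were at least 500 bp, with GC of 55% and observed over expected CpG of 0.65. Genes came from GENCODE on NCBIM37, each with the TSS of its longest protein-coding transcript. Calling was tested on simulated data, in which most regions with a difference moderately beyond 0.2, and some with a large one, were missed. Python 3.11.15, NumPy 2.4.6, pandas 2.3.3, SciPy 1.17.1, numba 0.67.0 and matplotlib 3.10.9 were used.

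Named were the 10 largest differences per direction among genes with at least 10 CpGs, the genes at the DMRs lower in *Dnmt3b* KO, both targeted genes, and up to 4 members per list and direction, of which the text gives the larger ones. Members and lists were chosen with earlier results of these data known. Other genes and regions that are named were chosen after their values were seen. Alternatives varied the read minimum, the CpG minimum, depth, the credible level, the test and the averaging. An item among the named genes and sequences is not reported here.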

Additional observations from a re-analysis of the deposited data

How the results depend on the processing

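No paired analysis was possible because the libraries of a genotype were merged before deposit, and for the same reason no replicate could be left out. Restricting the CpGs to those outside soft-masked repeats was not run, since the reference sequence carried no masking. Among the alternatives run, the direction of the mean difference and of all counts between the knockouts stayed the same. The mean difference was -25.9 points with at least 10 reads, -25.2 points with at least 3 and -20.02 points as read share. CpGs called lower in *Dnmt3a* KO numbered 1947274 with a 99% credible interval and 6443921 with Fisher's exact test, and those lower in *Dnmt3b* KO numbered 2926 and 57436. DMRs lower in *Dnmt3a* KO numbered 34891 and 329390 in the same order, 26950 beyond a difference of 0.3 and 21205 with at least 6 CpGs, and those lower in *Dnmt3b* KO numbered 1, 55, 1 and 0. With at least 10 CpGs, windows lower in *Dnmt3a* KO numbered 467347 and those lower in *Dnmt3b* KO 32, or 60 with at least 10 reads. Windows under 10% in *Dnmt3a* KO and at 50% or more in *Dnmt3b* KO numbered 3366 with at least 10 CpGs, and the reverse numbered 0 with at least 10 CpGs or 10 reads. Proximal promoters lower in *Dnmt3a* KO numbered 3380 with at least 10 CpGs, and 1 was lower in *Dnmt3b* KO with at least 10 reads. The strand difference was -0.495 and -0.364 points without CpGs over 500 reads, -1.31 and -0.466 as a mean over CpGs, and -8.40 and -0.664 at CpGs of 20% to 80%. The gap by following base, whose alternatives were chosen after seeing the data, was 12.6 points with at least 10 reads, 12.8 within 1-kb windows and 12.8 outside CGIs. Fewer CpGs, windows or genes entered under stricter minimums. The main strand differences came mostly from CpGs over 500 reads, and the cause of the other shifts was not tested. Among named genes 7 values reversed, all of genes whose level was lower in *Dnmt3b* KO. These were the promoters of *Ethe1* (-2.27 points with at least 10 reads and -0.766 as read share) and *Olfr1037* (-17.2 and -10.7), and the bodies of *Hoxb8* (-1.15 and -0.923) and *Spry2* (-0.204 as read share). Median depth was 21 and 22 reads per CpG. The difference of the *Zfp575* promoter was 0.0120 points with at least 10 reads.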

Other observations

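Chromosome X was left out of the comparison above. Over its 725312 matched CpGs the mean level was 51.2% without DNMT3A and 77.4% without DNMT3B, a difference of -26.3 points. Its median depth was 17 and 11 reads per CpG, beside 21 and 22 on the autosomes. Relative to the autosomes, chromosome X was thus covered less in *Dnmt3b* KO than in *Dnmt3a* KO. Whether the lines differ in their content of chromosome X was not tested.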
